A study of Homo sapiens with 6 samples.

Results

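The 10 genes described here encode the 5 subunits of the transcription factor NF-kB (RELA, REL, RELB, NFKB1 and NFKB2), 3 proteins that restrain it (NFKBIA, NFKBIE and TNFAIP3) and the 2 catalytic kinases that release it (IKBKB and CHUK). They were taken by gene symbol from a table of raw counts of 54261 gene rows, all 10 symbols were found, and all 10 passed the filter on low counts. The table compares 786-O, an established human line of clear-cell renal carcinoma, with 7R, a derivative of the same line that its labels describe as resistant to sunitinib, a kinase inhibitor of the VEGF and PDGF receptors. There are 3 libraries of total RNA from each line, called control and resistant after the labels. The labels do not state a treatment at harvest, how the resistant line was selected, whether it is 1 clone, or whether a line was grown in separate cultures for its libraries. The p-values therefore set the difference between the lines against the spread of these libraries, and that spread may be technical.

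NF-kB acts as a dimer of 2 subunits. RELA, REL and RELB carry a domain that activates transcription, whereas NFKB1 and NFKB2 are made as long precursors that are cut to a short DNA-binding subunit. In unstimulated cells the inhibitor proteins hold dimers in the cytoplasm. In the canonical pathway, signals from TNF, IL-1 or Toll-like receptors activate a complex of IKBKB, CHUK and the scaffold IKBKG, which marks the inhibitor for destruction. In the non-canonical pathway, the kinase MAP3K14 activates CHUK, and the precursor NFKB2 is cut to pair with RELB. NFKBIA, NFKBIE, TNFAIP3, NFKB1, NFKB2, REL and RELB are themselves known targets of NF-kB, which gives the pathway its feedback.

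Because several members are targets of NF-kB, the DNA ahead of those on which the results turn is shown. Promoter sequences were taken from RefSeq (build GRCh38.p14) as the 250 bases before each listed transcription start. Of the 10 members, 7 had an entry, and RELB, NFKBIE and IKBKB had none. The 10-base kappaB consensus, the motif that NF-kB dimers bind, was searched on both strands, with overlapping matches kept. It was present in 5.21% of 35116 such windows. That share counts windows, whereas the members are listed here by gene, some with more than 1 window. The consensus was present before at least 1 listed start of NFKB1, NFKB2, REL, NFKBIA and TNFAIP3. It was not present before the starts of RELA (2 windows) or CHUK (1 window), which says only that those letters are not in these windows. In the sequences below, written 5′ to 3′ on the gene's own strand, capitals mark the matches. The REL window is chr2:60881324-60881573 on the plus strand, where 2 matches overlap and begin 47 and 46 bases before the start. The NFKB1 window is chr4:102501109-102501358 on the plus strand, with 1 match beginning 49 bases before the start, and a second listed start further along the gene had none. The TNFAIP3 window is chr6:137867009-137867258 on the plus strand, with matches beginning 67 and 55 bases before the start. The NFKBIA window is chr14:35404750-35404999 on the minus strand, with 1 match beginning 81 bases before the start. These windows are shown for 3 members that were higher in the resistant line with and without the adjustment for GC content described later (REL, NFKB1, TNFAIP3) and for NFKBIA, which was not.
REL: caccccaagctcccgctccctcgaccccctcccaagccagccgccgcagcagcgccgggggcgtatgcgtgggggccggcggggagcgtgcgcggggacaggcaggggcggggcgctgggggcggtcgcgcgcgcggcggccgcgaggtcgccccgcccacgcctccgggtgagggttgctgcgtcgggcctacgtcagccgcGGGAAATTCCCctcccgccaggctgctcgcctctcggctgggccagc
NFKB1: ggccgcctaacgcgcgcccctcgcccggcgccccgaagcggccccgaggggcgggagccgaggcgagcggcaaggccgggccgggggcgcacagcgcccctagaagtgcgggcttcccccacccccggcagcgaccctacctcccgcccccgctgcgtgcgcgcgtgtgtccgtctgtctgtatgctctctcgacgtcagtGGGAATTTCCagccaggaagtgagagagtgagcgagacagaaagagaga
TNFAIP3: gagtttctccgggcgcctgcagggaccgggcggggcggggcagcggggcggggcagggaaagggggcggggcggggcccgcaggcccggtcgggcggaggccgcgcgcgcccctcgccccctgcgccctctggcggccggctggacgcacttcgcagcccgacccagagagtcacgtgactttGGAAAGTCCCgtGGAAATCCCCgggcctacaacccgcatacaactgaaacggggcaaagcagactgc
NFKBIA: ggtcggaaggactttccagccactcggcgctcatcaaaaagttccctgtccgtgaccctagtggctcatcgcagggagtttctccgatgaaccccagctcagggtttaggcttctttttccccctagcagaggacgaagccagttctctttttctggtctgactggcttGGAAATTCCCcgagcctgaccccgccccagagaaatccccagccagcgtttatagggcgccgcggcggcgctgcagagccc
NFKB2 had no match before 1 of its 3 listed starts, 3 before the second (GGGAATTCCC, GGAATTCCCC and GGGGCTTTCC, of which the first 2 overlap) and 2 before the third (GGGGCTTCCC and GGGACTTTCC). A match is a description of the sequence. Binding of NF-kB to these windows was not measured.

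The control libraries held 48264905 to 52221491 counts and the resistant libraries 37919629 to 38131634. Levels are given as CPM, counts scaled to a common total with TMM factors, which set the bulk of genes equal between libraries. Where 0 counts were found, up to 3 counts are possible (0.0663 to 0.0707 CPM), which covers counting error only. Within its line, resistant replicate 1 differed most: its chi-square per degree of freedom against the other resistant libraries was 62.9 and 60.1, and that of the other resistant pair was 8.94. Control replicate 1 also differed most within its line, at 26.5 and 35.5, and the other control pair was at 12.4. PAX8, a kidney lineage factor kept in these tumours, was at 397 to 585 CPM in the 6 libraries. The 6 markers of such a line, most of it VIM, summed to 12387 to 13583 CPM in control and 3378 to 4260 CPM in resistant libraries, and none was at 0. VIM, KRT8, KRT18, EPAS1 and PAX8 were lower in each resistant library than in each control library, and CDH6 overlapped. The part of these markers in the results below was not tested. The extraction text in the labels names a brain region. The 9 brain markers summed to 29.004 to 31.416 CPM in control and 40.579 to 44.379 CPM in resistant libraries, most of it MBP, and MOG had 0 counts in each library. The leukocyte markers PTPRC, CD3E and MS4A1 had 0 counts in each library, and CD68 was at 39.7 to 46.4 CPM in control and 8.13 to 9.81 CPM in resistant libraries. In bulk RNA, fewer cells of a type and less RNA per cell cannot be told apart.

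The comparison asked how the parts of the NF-kB system differ between the sunitinib-resistant line and its parent. On the TMM scale REL, CHUK, TNFAIP3 and NFKB1 rose in the resistant line, RELA, NFKBIE, NFKBIA, RELB and NFKB2 fell, and IKBKB did not pass the test. The members that changed at least 2-fold were REL and CHUK, which rose, and RELA, which fell. With edgeR's quasi-likelihood test at an adjusted p of 0.05, 4 of 10 members were called higher, against 39.3% of all 16642 genes tested, and 5 of 10 lower, against 36.9%. The 3 control and the 3 resistant libraries did not overlap for any of the 10 members, and they did not overlap for 80.3% of all genes tested. Calls of this kind were therefore about as common among the members as among all genes. The median log2 fold change (resistant over control) was -0.23 over the members and 0.049 over all genes tested. Scaled by library size alone, the median of all genes moved to 0.39, and the fold changes below are relative to the TMM scale.

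**Figure D1:**
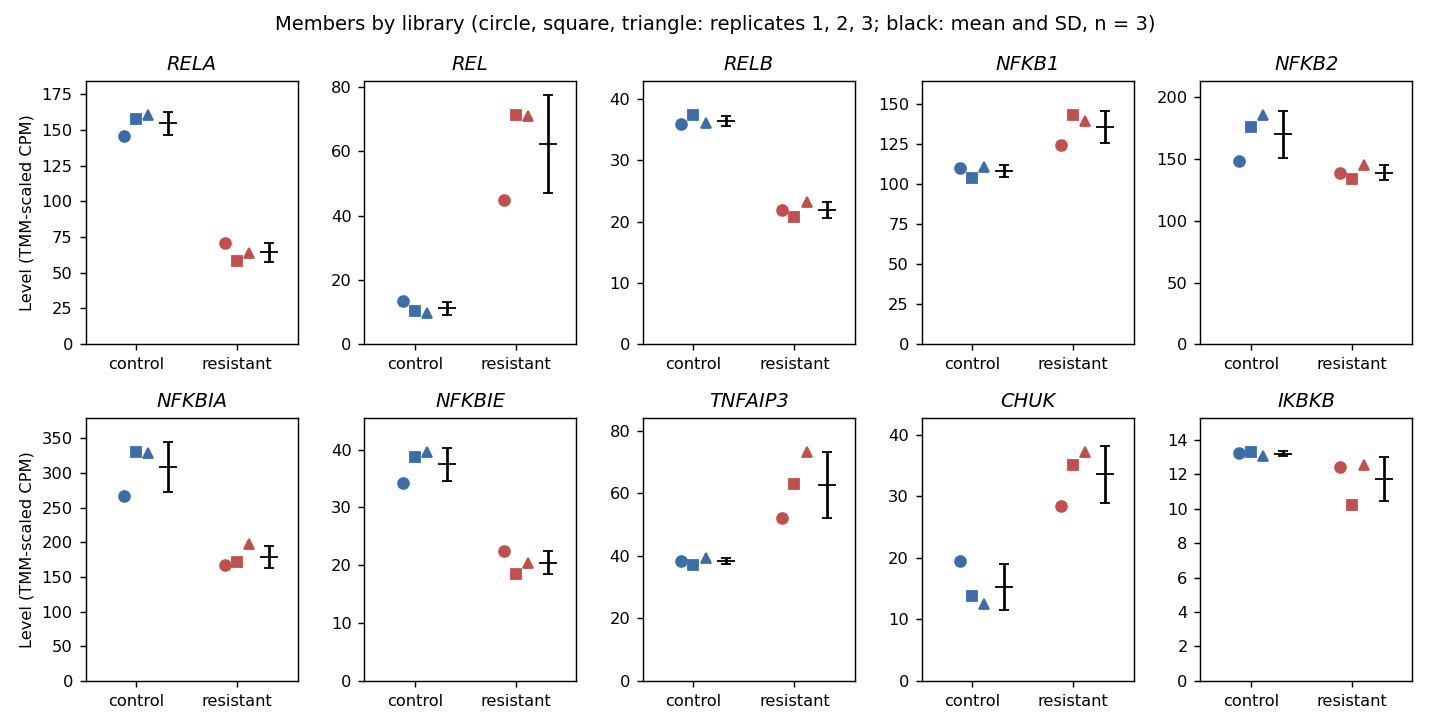
Level of each member in TMM-scaled CPM (vertical axis, from 0 in each panel) in the 3 control and 3 resistant libraries. Symbols mark the replicate, and the black bar is the mean with its SD. No panel has overlapping groups, and REL shows the largest ratio between lines, from at most 13.5 CPM in control to at least 44.7 CPM in resistant libraries.

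REL, the subunit best known from lymphoid cells, had the largest change of the members. Its level was 13.5, 10.3 and 9.81 CPM in the control libraries and 44.7, 71.2 and 70.9 CPM in the resistant libraries. Each resistant library was above each control library, with resistant replicate 1 below the other 2. The mean rose 5.55-fold, from 11.2 ± 1.99 to 62.3 ± 15.2 CPM (SD, n = 3), and the log2 fold change was 2.47 ± 0.19 (SE, edgeR adjusted p = 4.24e-07). Without resistant replicate 1 the log2 fold change was 2.66.

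RELA, the main activating subunit of the canonical pathway in most cells, moved the other way. It was at 146, 158 and 160 CPM in control and at 71.2, 58.0 and 64.0 CPM in resistant libraries. The lowest control library was above the highest resistant library by more than the spread within either line. The mean fell 2.40-fold, from 155 ± 7.85 to 64.4 ± 6.61 CPM (SD, n = 3), with a log2 fold change of -1.26 ± 0.11 (SE, edgeR adjusted p = 8.65e-07). RELB, the activating subunit of the non-canonical pathway, was at 35.98, 37.33 and 36.01 CPM in control and 21.9, 20.7 and 23.3 CPM in resistant libraries. The spread within each line was small beside the gap between them. RELB had a log2 fold change of -0.73 ± 0.11 (SE, edgeR adjusted p = 5.16e-05).

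The precursor subunits had the smallest changes of the members called. NFKB1, the partner of RELA in the classical dimer, was at 110, 104 and 110 CPM in control and 124, 143 and 139 CPM in resistant libraries, a log2 fold change of 0.33 ± 0.10 (SE, edgeR adjusted p = 0.0107). The groups lay close to each other, and the call rested on single libraries: without control replicate 2 the log2 fold change was 0.25 (adjusted p = 0.115), and without resistant replicate 2 it was 0.28 (adjusted p = 0.0549). NFKB2 was at 148, 176 and 185 CPM in control and 138, 134 and 145 CPM in resistant libraries, a log2 fold change of -0.29 ± 0.11 (SE, edgeR adjusted p = 0.0290). Control replicate 1 was only slightly above resistant replicate 3. The call for NFKB2 was lost without control replicate 2 (adjusted p = 0.0658), control replicate 3 (0.0882) or resistant replicate 2 (0.0880), and scaled by library size alone its log2 fold change was 0.056 (adjusted p = 0.643).

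The inhibitors did not move together. NFKBIA, the inhibitor that NF-kB re-makes within its own feedback loop, was the most abundant member at 267, 330 and 329 CPM in control and 168, 171 and 198 CPM in resistant libraries. Control replicate 1 was the lowest of its line but stayed above each resistant library. Its log2 fold change was -0.79 ± 0.12 (SE, edgeR adjusted p = 5.58e-05). NFKBIE, a related inhibitor, was at 34.2, 38.7 and 39.6 CPM in control and 22.5, 18.5 and 20.4 CPM in resistant libraries, with a log2 fold change of -0.87 ± 0.12 (SE, edgeR adjusted p = 2.89e-05). TNFAIP3, a ubiquitin-editing enzyme that shuts off signalling upstream of the kinases, went against both. It was at 38.2, 37.2 and 39.2 CPM in control and 52.01, 62.98 and 73.16 CPM in resistant libraries. The control libraries were nearly equal and the resistant libraries were more spread. The mean rose 1.64-fold, with a log2 fold change of 0.71 ± 0.13 (SE, edgeR adjusted p = 3.00e-04).

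Of the kinases, CHUK, which serves both pathways, rose, and IKBKB, the main kinase of the canonical pathway, did not pass the test. CHUK was at 19.4, 13.8 and 12.5 CPM in control and 28.4, 35.2 and 37.2 CPM in resistant libraries. In each line replicate 1 was the library nearest to the other line. The mean rose 2.21-fold, with a log2 fold change of 1.14 ± 0.17 (SE, edgeR adjusted p = 6.16e-05). In the GENCODE release 29 annotation, CHUK shares 37 exonic bases with its neighbour ERLIN1. IKBKB was at 13.3, 13.3 and 13.1 CPM in control and 12.4, 10.2 and 12.5 CPM in resistant libraries, a log2 fold change of -0.17 ± 0.13 (SE, edgeR adjusted p = 0.260). IKBKG, the scaffold of the same complex and not one of the 10, was chosen for mention after its values were seen: it fell from 18.1 ± 2.11 to 6.89 ± 0.66 CPM, a log2 change of -1.39 ± 0.15 (edgeR adjusted p = 3.41e-06), and did not pass after the adjustment for GC content and length described later (0.068, adjusted p = 0.598). IKBKG has a near-identical pseudogene with which reads may be shared, so its value is uncertain.

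The direction of the members followed the GC content of their transcripts, as it did for all genes. Over the 14299 tested genes whose GC content was known, the rank correlation of GC content with log2 fold change (Spearman's rho) was -0.68, and genes are not independent replicates. Over the 10 members it was -0.78, as a description over points that share the same libraries. The lowest GC contents were those of CHUK (39.1%) and REL (41.1%), which rose, and the highest those of RELB (65.4%), NFKB2 (61.2%), NFKBIE (61.0%) and RELA (59.0%), which fell. NFKB1 (49.5%), TNFAIP3 (49.8%), IKBKB (52.4%) and NFKBIA (53.6%) lay between. Genes were split into deciles of GC content, and some members lay outside the interquartile range of their decile. By definition that range leaves out as many genes as it holds, so lying outside it does not set a member apart. The median log2 fold change of the decile that holds REL was 1.13, with an interquartile range from 0.51 to 1.73, and REL was at 2.47. The decile that holds NFKB2, NFKBIE and RELA had a median of -1.19 and an interquartile range from -1.56 to -0.71. NFKB2 at -0.29 lay above that range, while NFKBIE at -0.87 and RELA at -1.26 lay inside it. CHUK at 1.14 lay near the median of its decile, 1.31, and NFKBIA at -0.79 near that of its own, -0.64. TNFAIP3 at 0.71 lay above the interquartile range of its decile, -0.78 to 0.42, and RELB at -0.73 above that of the highest decile, -1.79 to -0.89.

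**Figure D2:**
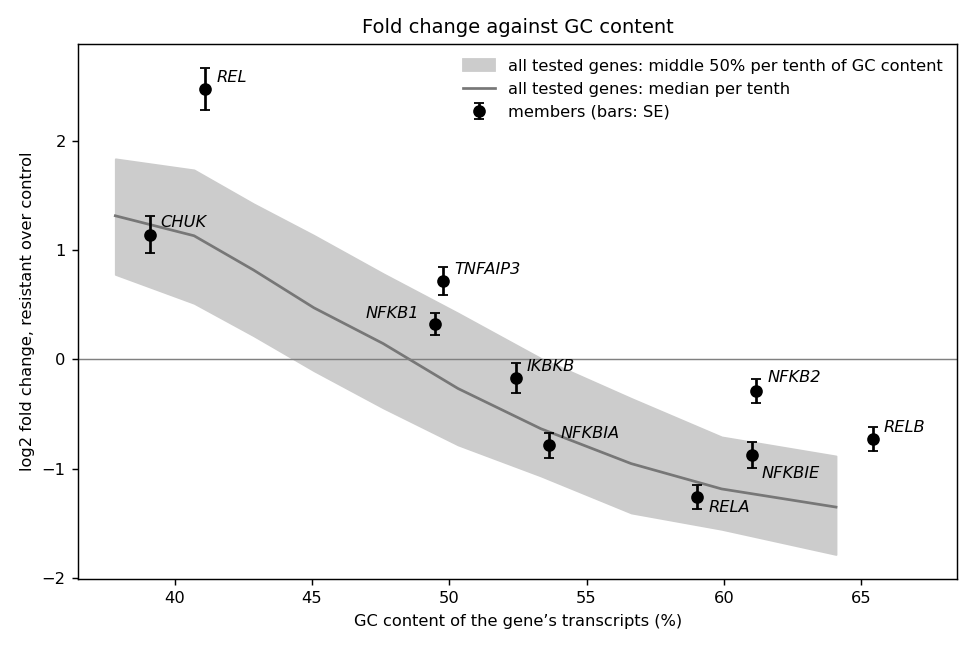
The log2 fold change of resistant over control (vertical axis) against the median GC content of a gene's transcripts in percent (horizontal axis). Points are the members with their SE, the line is the median and the band the interquartile range of all tested genes in each decile of GC content. REL, TNFAIP3 and NFKB2 lie above the band and RELB above the height of its right end, and the other 6 members lie inside it.

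The dependence on GC content and transcript length was then fitted as splines and removed from each library and the test was run again over 14299 genes. After this adjustment 6 of 10 members were called higher, against 34.3% of the genes tested, and 0 of 10 lower, against 32.7%. The number lower after adjustment was also 0 at an unadjusted p under 0.05, against 4853 of the 14299 genes. DESeq2, run without the adjustment only, called 4 higher and 5 lower, beside 6461 and 6126 of all genes. REL, NFKB1 and TNFAIP3 were higher before and after adjustment, with adjusted log2 fold changes of 1.35 ± 0.11, 0.39 ± 0.08 and 0.82 ± 0.12 (SE). RELB, NFKB2 and NFKBIE turned from lower to higher, at 0.83 ± 0.10, 0.98 ± 0.09 and 0.43 ± 0.07 (SE). The 2 non-canonical subunits were among those that turned. On the adjusted scale NFKB2 was at 107, 121 and 120 CPM in control and 201, 237 and 247 CPM in resistant libraries, and RELB at 23.6, 23.1 and 20.6 CPM in control and 34.97, 42.64 and 42.70 CPM in resistant libraries.

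RELA, NFKBIA and CHUK no longer passed after adjustment. RELA was at -0.11 ± 0.07 (SE, edgeR adjusted p = 0.154), NFKBIA at -0.036 ± 0.10 (adjusted p = 0.752) and CHUK at -0.035 ± 0.10 (adjusted p = 0.777). IKBKB was at 0.26 ± 0.11 (adjusted p = 0.0656), and with GC content alone adjusted it was called higher at 0.29 (adjusted p = 0.0425). The call or the sign of RELB, NFKB2, NFKBIE, RELA, NFKBIA, CHUK and IKBKB therefore depended on whether the GC trend was kept, and the part of GC content in these results was not tested. REL, TNFAIP3 and NFKB1 were higher on both scales, NFKB1 on the TMM scale only while replicate 2 of both lines was kept.

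**Figure D3:**
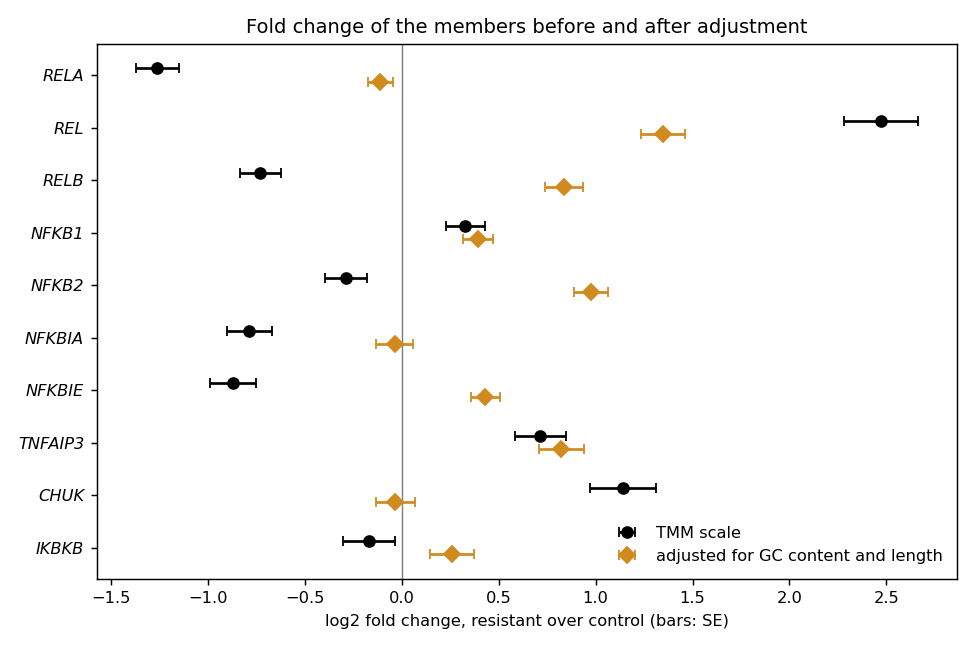
The log2 fold change of resistant over control with its SE for each member (rows), on the TMM scale (circles) and after adjustment for GC content and transcript length (diamonds). REL, NFKB1 and TNFAIP3 lie above 0 on both scales, and RELB, NFKB2 and NFKBIE lie below 0 on the first and above it on the second.

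Levels of different members were compared per kilobase of exon, with exon lengths from GENCODE release 29, which may differ from the authors' annotation. In control cells the order was NFKBIA (162 ± 19.1 CPM per kb, SD, n = 3), NFKB2 (46.2 ± 5.24), RELA (45.6 ± 2.32), NFKB1 (19.6 ± 0.70), RELB (15.8 ± 0.34), NFKBIE (14.5 ± 1.11), TNFAIP3 (8.07 ± 0.21), CHUK (4.20 ± 1.02), IKBKB (3.03 ± 0.03) and REL (0.997 ± 0.177). NFKB2 and RELA overlapped between libraries, and the other neighbours did not. In resistant cells NFKBIA was again the highest (94.1 ± 8.60 CPM per kb), followed by NFKB2 (37.8 ± 1.58), NFKB1 (24.5 ± 1.79), RELA (19.0 ± 1.95) and TNFAIP3 (13.2 ± 2.23). On this scale RELA stood below NFKB1 in resistant cells and above it in control cells. With levels adjusted for GC content and length, RELA was above NFKB1 in both lines, at 28.9 to 31.1 against 24.1 to 27.9 CPM per kb in resistant libraries and 31.8 to 33.0 against 19.4 to 20.7 in control libraries. Without the adjustment, the lower members in resistant cells were RELB (9.55 ± 0.56), CHUK (9.27 ± 1.28) and NFKBIE (7.93 ± 0.76), each overlapping its neighbour among these. REL (5.54 ± 1.35) and IKBKB (2.69 ± 0.30) came after them. With the median transcript length in place of the exon total, REL was at 9.13 ± 2.23 CPM per kb in resistant cells and overlapped CHUK and NFKBIE, and at 1.64 ± 0.29 in control cells, where it remained the lowest. In GENCODE 29 a non-coding transcript on the same strand shares 5702 of the 11255 exonic bases of REL.

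A ratio of 2 members within a library does not depend on how libraries are scaled, and 7 such ratios were compared. Exact two-sided permutation tests of 3 against 3 libraries cannot go below p = 0.1, so none could pass 0.05 and each is given with its size. The ratio of REL to RELA counts was 0.0927, 0.0655 and 0.0612 in control and 0.629, 1.23 and 1.11 in resistant libraries. RELA had over 10 times the counts of REL in each control library, while in 2 of 3 resistant libraries REL had the more counts. These counts are not scaled by transcript length. Per kilobase of exon, RELA stayed above REL in resistant cells (19.0 ± 1.95 against 5.54 ± 1.35 CPM per kb, SD). The difference was 3.72 on the log2 scale (exact p = 0.1, Benjamini-Hochberg over the 7 ratios 0.117), and 1.45 after the GC and length adjustment (exact p = 0.1). The ratio of NFKB1 to RELA was 0.757, 0.656 and 0.689 in control and 1.74, 2.46 and 2.18 in resistant libraries, a log2 difference of 1.59 (0.50 after adjustment), with no overlap on either scale.

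The feedback inhibitors also shifted against each other. TNFAIP3 over NFKBIA was 0.143, 0.113 and 0.119 in control and 0.310, 0.368 and 0.370 in resistant libraries, a log2 difference of 1.49 (0.85 after adjustment, without overlap). NFKBIA over its client RELA rose by less, from 1.83, 2.09 and 2.05 to 2.36, 2.95 and 3.09, and the log2 difference of 0.48 became 0.070 with overlapping groups after adjustment. NFKB2 over RELB, the pair of the non-canonical dimer, was 4.12, 4.72 and 5.15 in control and 6.31, 6.46 and 6.24 in resistant libraries, a log2 difference of 0.45, which became 0.14 with overlapping groups. NFKBIE over NFKBIA overlapped between lines (log2 difference -0.091, exact p = 0.5) and was 0.47 without overlap after adjustment. IKBKB over CHUK fell from 0.682, 0.966 and 1.05 to 0.437, 0.291 and 0.337, a log2 difference of -1.34, but was 0.28 after adjustment, the opposite direction.

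**Figure D4:**
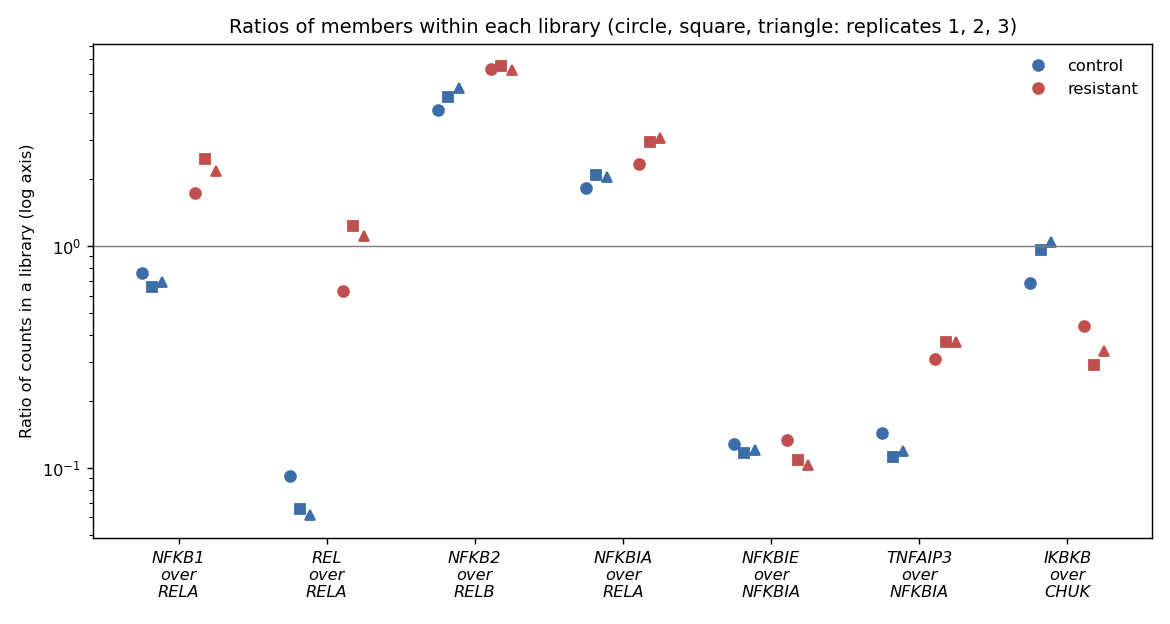
Ratio of the counts of 2 members within each library (vertical log axis) for 7 pairs (horizontal axis). Blue marks control and red resistant libraries, and symbols mark the replicate. REL over RELA runs from 0.0612 to 0.0927 in control and from 0.629 to 1.23 in resistant libraries, and NFKBIE over NFKBIA is the pair whose groups overlap.

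The rest of the pathway was read from 6 lists of 115 genes, of which 101 were tested, and means are given with the SD over 3 libraries. On the TMM scale 40 were higher and 44 lower (all genes tested: 39.3% and 36.9%), and after adjustment for GC content and length 48 were higher and 26 lower (34.3% and 32.7%). Scaled by library size alone, 50 were higher and 32 lower, beside 7851 higher and 4720 lower of all 16642 genes. Among receptors, 5 of 16 tested were higher and 8 lower (median log2 fold change -0.44), and 6 and 6 after adjustment (-0.14), against 6 and 5 by library size alone. TNFRSF12A, the receptor for TWEAK and an activator of the non-canonical pathway, fell from 421 ± 41.4 to 91.2 ± 15.5 CPM, -2.21 on the log2 scale (-0.95 after adjustment). TNFRSF11A, the receptor for RANKL, fell from 19.6 ± 2.67 to 6.17 ± 0.82 CPM, at -1.67 (-1.72 after adjustment). IL18R1, a chain of the interleukin-18 receptor, rose from 1.30 ± 0.20 to 10.6 ± 1.75 CPM, at 3.03 (1.90). TLR6, a Toll-like receptor of lipopeptides, rose from 1.37 ± 0.40 to 10.7 ± 1.59 CPM, at 2.96 (1.80). Each of these 4 passed the test on both scales.

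Most ligands were too low to test. TNF, LTB and CD40LG had 0 counts in each of the 6 libraries. Of 13 ligands 5 were tested, 4 higher and 1 lower on both scales. The shares of all genes were 39.3% and 36.9%, and 34.3% and 32.7% after adjustment. IL1A, TNFSF15 and TNFSF13B passed the low-count filter only through the resistant libraries, so a call of lower was not open to them. With a filter of 1 CPM in 3 libraries, 1 ligand was called higher. IL18 rose from 2.20 ± 0.63 to 19.1 ± 2.96 CPM, 3.12 on the log2 scale (2.19 after adjustment). TNFSF10, the death ligand TRAIL, fell from 89.7 ± 9.81 to 59.2 ± 17.8 CPM, at -0.60 (-1.46), but did not pass when libraries were scaled by size alone (-0.26, adjusted p = 0.240). The other 3 tested ligands had means below 1 CPM in both lines and are named after their values were seen. IL1A had 0 counts in the control libraries and 14, 27 and 20 in the resistant libraries, at least 21.0-fold higher against a floor of 3 counts over the control group. TNFSF15 had 0 counts in control and 14, 24 and 12 in resistant libraries, at least 17.2-fold higher against the same floor. TNFSF13B rose from 0.097 ± 0.064 to 0.99 ± 0.27 CPM.

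Among adaptors and ubiquitin enzymes, 9 of 21 were higher and 10 lower (median 0.027), and 7 and 6 after adjustment (-0.021). Of all genes tested, 39.3% were higher and 36.9% lower, and 34.3% and 32.7% after adjustment. BIRC3, a ubiquitin ligase of the TNF receptor complex and itself a known NF-kB target, rose from 28.4 ± 5.24 to 245 ± 52.1 CPM, 3.11 on the log2 scale (1.85 after adjustment). TRAF5, an adaptor of TNF receptors, rose from 1.64 ± 0.16 to 6.04 ± 0.65 CPM, at 1.88 (0.95). CARD10, a scaffold that links receptors to the kinase complex, fell from 196 ± 13.4 to 63.2 ± 5.23 CPM, at -1.63 (-0.24). RNF31, the catalytic subunit of the linear ubiquitin ligase, fell from 76.7 ± 12.4 to 22.1 ± 0.24 CPM, at -1.80 (-0.60). All 4 passed on both scales.

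Of 11 other kinases and scaffolds, 7 were higher and 4 lower (median 0.85), beside 39.3% and 36.9% of all genes. After adjustment 5 were higher and 3 lower (0.068), beside 34.3% and 32.7%. TBK1, an IKK-related kinase of innate signalling, rose from 9.30 ± 0.81 to 36.9 ± 8.02 CPM, at 1.99 (0.81), and its adaptor TANK from 13.9 ± 1.66 to 58.9 ± 14.6 CPM, at 2.08 (0.96). MAP3K14, the kinase that starts the non-canonical pathway, fell from 140 ± 8.44 to 50.3 ± 9.36 CPM, at -1.48 (-0.40), and MAP3K3 from 73.0 ± 3.94 to 25.5 ± 2.90 CPM, at -1.52 (-0.59). Each was called on both scales, by less after adjustment.

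Other inhibitors and atypical IkB proteins gave 6 higher and 6 lower of 16 (median -0.012), beside 39.3% and 36.9% of all genes. After adjustment 10 were higher and 2 lower (0.55), beside 34.3% and 32.7%. By library size alone 8 were higher and 3 lower, beside 7851 and 4720 of all 16642 genes. TAX1BP1, a partner of TNFAIP3, rose from 28.2 ± 4.29 to 126 ± 33.5 CPM, at 2.16 (1.01), and OTULIN, which removes linear ubiquitin chains, from 55.7 ± 6.71 to 121 ± 7.33 CPM, at 1.12 (0.28). TNIP2, a ubiquitin-binding inhibitor, fell from 76.9 ± 5.96 to 40.9 ± 2.15 CPM, at -0.91, and turned to 0.55 after adjustment (adjusted p = 6.52e-05). NKIRAS2, a small GTPase-like protein that binds IkB, fell from 69.3 ± 6.53 to 32.7 ± 2.71 CPM, at -1.08, and did not pass after adjustment (0.079, adjusted p = 0.347).

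Of 32 tested target genes of NF-kB outside the members, 9 were higher and 15 lower (median -0.019), beside 39.3% and 36.9% of all genes tested. After adjustment 16 were higher and 8 lower (0.35), beside 34.3% and 32.7%. By library size alone 14 were higher and 11 lower, with a median of 0.33. All genes also shifted upward on that scale, to 7851 higher and 4720 lower of 16642, with a median of 0.39. CXCL5, a neutrophil chemokine, rose from 11.7 ± 3.16 to 231 ± 56.8 CPM, 4.31 on the log2 scale (3.10 after adjustment), and CXCL8, another, from 19.6 ± 1.16 to 205 ± 44.2 CPM, at 3.39 (2.16). SERPINE2, a protease inhibitor, fell from 83.3 ± 2.91 to 17.0 ± 1.18 CPM, at -2.29 (-2.46). CSF1, the growth factor of macrophages, fell from 388 ± 17.1 to 148 ± 2.51 CPM, at -1.39, and did not pass after adjustment (-0.15, adjusted p = 0.142). The median of all genes tested was 0.049 on the TMM scale and 0.018 after adjustment.

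**Figure D5:**
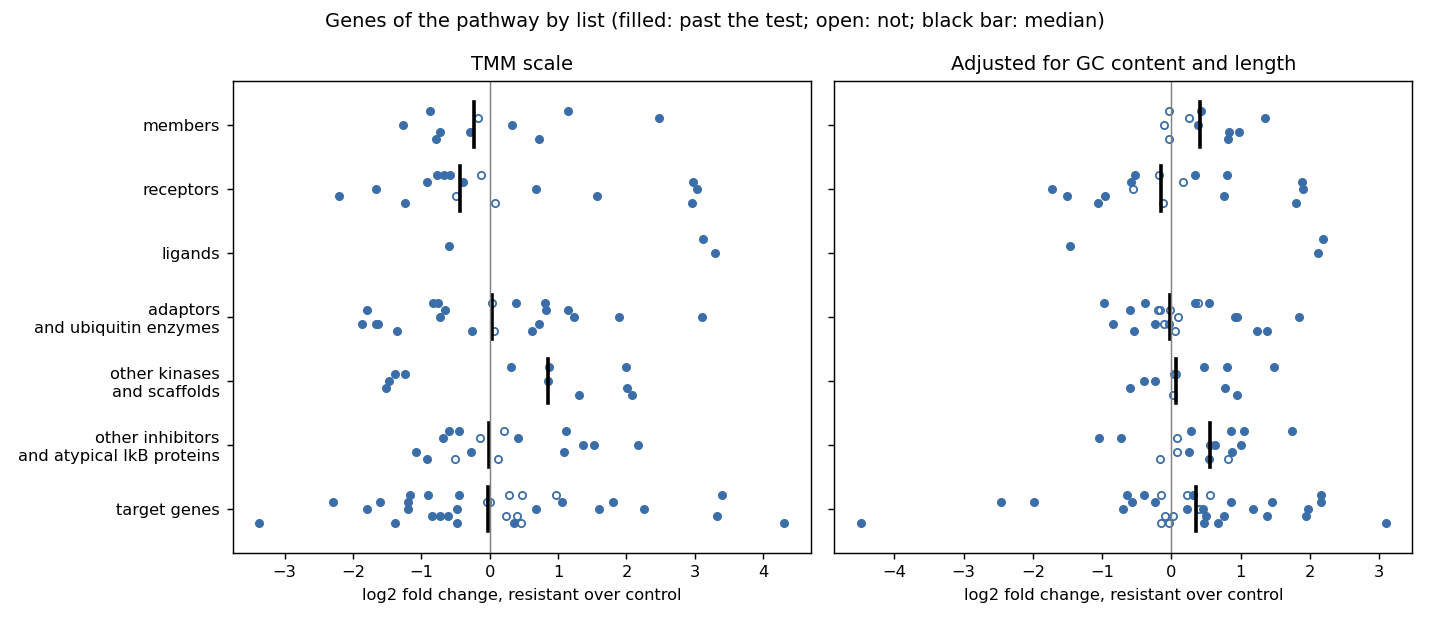
The log2 fold change of resistant over control (horizontal axis) for each tested gene of the members and of 6 lists of the pathway (rows), on the TMM scale (left) and after adjustment for GC content and length (right). Filled points passed the test at an adjusted p of 0.05, open points did not, and the black bar is the median, left out for ligands because IL1A and TNFSF15, at 0 counts in control, are not drawn. The median of the members is -0.23 on the left and 0.41 on the right.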

How the data were processed

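The authors deposited raw counts by gene symbol. HISAT2 2.0.4 is listed per the submitters' processing notes. No source used here gives the counting program, strand setting, build or annotation, so overlapping or antisense genes may share counts. Titles gave the groups, and 0 columns of other samples remained. Within a line, libraries differed by more than sampling noise, and all 6 were kept as separate samples.

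Genes passing filterByExpr (16642) were scaled by TMM and tested with the quasi-likelihood test of edgeR 4.0.16 (R 4.3.3), with p-values adjusted over all of them (Benjamini-Hochberg, 0.05) and no covariate. SE was approximated by dividing the absolute log2 fold change by the root of F. The GC and length adjustment used GENCODE 29 basic transcripts (median per gene, 85.9% of tested genes matched). Natural splines on GC content (6 df) and log2 length (5 df) were fitted to each library's deviation in log2 CPM (prior count 1) and used as an offset. The fits were tested on simulated counts. DESeq2 1.42.0, other factors and filters, a replicate block and leaving out libraries were alternatives.

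The members and lists were chosen with earlier results of these data known. Named genes are the members and, per list, the 2 higher and 2 lower genes with the smallest p, among genes called with a mean level of 1 CPM or more. 1 marker gene is not reported here.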

Additional observations from a re-analysis of the deposited data

How the results depend on the processing

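Members called higher numbered 7 with GC content alone adjusted, beside 4862 of all 14299 genes. Members called lower numbered 0 with GC content and length adjusted, with GC content alone, with the adjustment and a replicate block, and with the adjustment without resistant replicate 1. In the same order, 4671, 4640, 4422 and 4867 of all genes were called lower. For the other pathway and target genes called lower the adjusted counts were 26, 25 with the block and 29 without resistant replicate 1. In the order GC and length, GC alone, GC and length with the replicate block, GC and length without resistant replicate 1, log2 fold changes were 0.98, 1.01, 0.97 and 1.06 for NFKB2, 0.83, 0.76, 0.83 and 0.93 for RELB, 0.43, 0.41, 0.43 and 0.44 for NFKBIE, -0.11, -0.12, -0.11 and -0.12 for RELA, -0.036, -0.17, -0.042 and 0.034 for NFKBIA, and -0.035, -0.029, -0.026 and -0.020 for CHUK. IKBKB was at 0.29 with GC content alone. TNIP2 was at 0.55, 0.43, 0.55 and 0.59, and NKIRAS2 at 0.079, -0.032, 0.080 and 0.074, in that order. NFKB2 was at 0.056 by library size alone and did not pass with upper-quartile factors (-0.23), 1 CPM in 3 libraries (-0.24), the genes with a GC value unadjusted (-0.21) or the replicate block (-0.28). With each library left out in turn, NFKB1 ranged from 0.25 to 0.38 and NFKB2 from -0.43 to -0.26. The cause of these changes was not tested. Same-numbered libraries did not deviate together (correlations -0.13, -0.01 and -0.06), and no library correlated best with its own number. The labels do not state whether the numbers pair the libraries, and so few libraries cannot decide it. With the block alone, 4 members were higher and 4 lower, beside 6246 and 5851 of all genes. NFKB2 was the member whose call the block changed. Neither REL nor TNFAIP3 changed its call under any alternative run. Depth does not limit the members, the least of which had 438 counts in a library.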

Other observations

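Among chemokines on the target list, CXCL2, CXCL5, CXCL8, CCL2 and CCL20 were called higher on the TMM scale, CXCL1 lower, and CXCL3 was not called. Of all genes tested, 39.3% were higher and 36.9% lower. CXCL6, CXCL10 and CCL5 were too low to test. CXCL2 did not pass after GC and length adjustment (0.40, edgeR adjusted p = 0.0595). CCL20 had 3, 13 and 5 counts in control libraries and passed the low-count filter through the resistant libraries. The genes of this paragraph, apart from CXCL5 and CXCL8, were picked after their values were seen. VCAM1, an adhesion molecule, rose from 22.1 ± 3.37 to 77.2 ± 4.802 CPM (SD, n = 3), 1.81 on the log2 scale (0.87 after GC and length adjustment). CCL2, a monocyte chemokine, rose from 28.8 ± 3.76 to 86.9 ± 20.8 CPM, at 1.59 (1.18). SOD2, a mitochondrial antioxidant enzyme, rose from 55.0 ± 3.72 to 263 ± 82.5 CPM, at 2.26 (1.97), with resistant replicate 1 at 7380 counts and the other resistant libraries at 12262 and 14030. CXCL1 fell from 4.37 ± 0.36 to 1.43 ± 0.25 CPM, at -1.61 (-1.98). CXCL1 resembles CXCL2 in sequence, and reads may have been split between them. TNFAIP6, a secreted hyaluronan-binding protein, fell from 7.31 ± 0.135 to 0.699 ± 0.36 CPM, at -3.38 (-4.49), with a GC content of 36.7%. ICAM1 overlapped between lines at 248 ± 23.9 and 292 ± 38.8 CPM (edgeR adjusted p = 0.0919) and was higher by 1.39 on the log2 scale after adjustment. IL6 was at 20.8 ± 3.88 and 20.2 ± 5.63 CPM (edgeR adjusted p = 0.848). After GC and length adjustment IL6 was called lower, at -0.57 on the log2 scale (edgeR adjusted p = 0.0249).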
